A study of Mus musculus with 25 samples.

Results

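The comparison set 3 hippocampal RNA-seq libraries of Scn1a+/- mice that had seizures, taken at postnatal day 24 (P24), against 3 libraries of Scn1a+/- mice taken at P14. They were chosen by their titles and are 6 of the 25 libraries of the series. All mice of these groups were first-generation crosses of the strains 129S6/SvEvTac and C57BL/6, written [129S6/SvEvTac x C57BL/6]F1 and here called F1. The difference from P14 Scn1a+/- to P24 seizure tissue is called the seizure course. It contains 10 days of postnatal growth as well as the seizures, so the same interval was measured in F1 wild-type mice, with 3 libraries at P24 and 3 at P14. That interval is called the wild-type course, and it shares no library with the seizure course. A further group, 2 P24 F1 libraries of Scn1a+/- mice for which the labels give no seizures, is set beside them as the seizure-free course and shares the P14 Scn1a+/- libraries. Each library was a pool of hippocampi, of 3 to 4 mice in the seizure group and of 12 to 16 mice in every other group. The labels give neither the litters of the pools nor the interval between the last seizure and dissection, so p-values measure the spread between pools. That spread was taken for each gene from all 25 libraries together, most of them larger pools outside the seizure group. A wider spread among seizure pools is therefore only partly counted in p-values and standard errors. Smaller pools and seizures cannot be told apart as sources of spread in the seizure group.

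Scn1a encodes the voltage-gated sodium channel Nav1.1, on which the firing of inhibitory interneurons depends, and mice with 1 working copy are a model of Dravet syndrome, an epilepsy of early childhood. In the weeks around weaning the hippocampus matures: oligodendrocytes wrap axons in myelin, the birth of new neurons slows, NMDA receptors exchange subunits, and the chloride exporter KCC2, encoded by Slc12a5, makes GABA inhibitory. Seizures are known to switch on immediate early genes in neurons, to induce peptides such as enkephalin and neuropeptide Y, and to make astrocytes reactive.

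Scn1a itself (chromosome 2, 66270781 to 66440837 in the mm10 build) stood at 82.0, 68.8 and 89.0 CPM (read counts per gene, scaled to library size) in the P24 seizure libraries, against 90.4, 92.7 and 90.4 in P14 Scn1a+/- libraries. Wild-type libraries had 130, 124 and 128 CPM at P24 and 106, 102 and 101 CPM at P14. Within each age every Scn1a+/- library lay below every wild-type library. Total counts per library ran from 19553419 to 22026211 for P24 seizure pools and from 7436442 to 11249953 for P14 Scn1a+/- pools. They ran from 21816220 to 24011969 for P24 wild type and from 11877868 to 14912198 for P14 wild type. The defining markers of neurons, dentate granule cells, the CA fields and glia were well above 0 in all 12 libraries. The red-cell gene Hbb-bs was listed at 0 in all of them, but the other blood marker, Alas2, was present in each. Alas2 ran from 4.63 to 7.77 CPM in seizure libraries and from 9.88 to 11.8 in P14 Scn1a+/-. In wild type it ran from 6.27 to 8.24 CPM at P24 and from 8.39 to 12.3 at P14. The seizure libraries differed among themselves more than the replicates of any other group. The chi-square per degree of freedom of their pairs was 18.3, 30.7 and 40.2, against 2.42 to 8.59 for replicate pairs elsewhere. In bulk tissue, fewer cells of a type and less RNA per cell cannot be told apart. The library kit does not mark strand, so for Timp1 (with Syn1), Ptx3 (Veph1), Gabrd (Cfap74), Cnp (Dnajc7), Nnat (Blcap), Igf2 (Igf2os), Camkk2 (P2rx4), Plekhd1 (Plekhd1os), Igfbpl1 (Stra6l), Grin3a (Ppp3r2), Per3 (Uts2) and P2ry12 (Med12l) reads of the overlapping gene cannot be separated.

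Seizure tissue at P24 shared part of the wild-type course since P14 and departed from it in both directions. Of the genes called in the seizure course, 2286 were also called in wild type with the same sign, 162 with the opposite sign, and 2421 had no called wild-type course. In the seizure course 4869 of 15912 tested genes passed (edgeR's quasi-likelihood test, Benjamini-Hochberg adjusted p under 0.05), which is 30.6% of genes, with 15.9% higher and 14.7% lower. In the wild-type course 4472 passed, which is 28.1%, with 13.9% higher and 14.2% lower. The 2 courses differed from each other, by a test of that difference, in 1537 genes, or 9.66%. Of these, 843 (5.3%) ran higher in the seizure course and 694 (4.36%) lower. Left out in turn, the third seizure library moved this count most, to 2861, of which 1464 were among the 1537. The seizure-free course had 3468 called genes (21.8%). Its difference from the wild-type course had 0 (0.0%), with 804 genes at an unadjusted p under 0.05 and 0 by DESeq2. For the gene lists below, the share of 9.66% over all tested genes is the background for counts of called differences between the seizure and wild-type courses.

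Each of the 4472 genes of the wild-type course was put in 1 class. A course was kept where the seizure course passed in the same direction and the difference did not pass. It was exceeded, reduced, lost or reversed where the difference passed and the seizure course was, in that order, larger, smaller but still called, no longer called, or called in the opposite direction. Kept genes numbered 2071, exceeded 148, reduced 67, lost 365 and reversed 162. Another 1659 met none of these terms and were undecided, and 1418 of those had the sign of the wild-type course. For 1615 of the kept genes the 95% interval of the difference lay within 1.5-fold. Outside the wild-type course, 757 genes changed in the seizure course alone with a called difference, and these are called added. As shares of all tested genes the classes held 13.0% (kept), 0.93% (exceeded), 0.421% (reduced), 2.29% (lost), 1.02% (reversed), 10.4% (undecided) and 4.76% (added). Among the 432 genes that changed at least 2-fold in wild type, 224 were kept, 10 exceeded, 29 reduced, 29 lost, 11 reversed and 129 undecided.

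**Figure D1:**
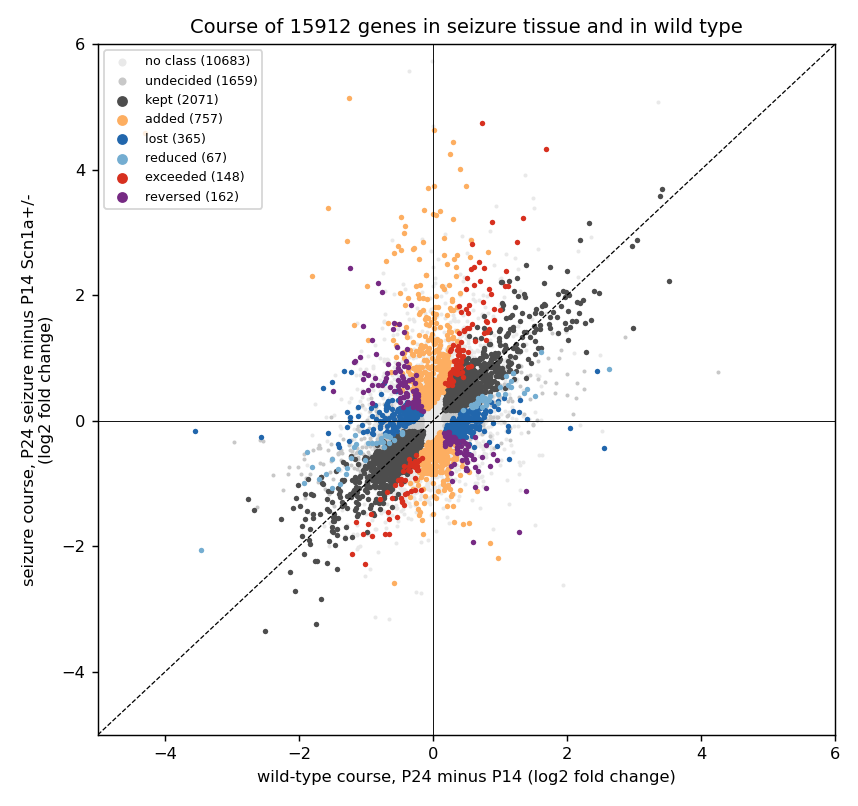
Log2 fold change of each tested gene in the wild-type course (horizontal axis) and in the seizure course (vertical axis), coloured by class, with the dashed line marking equal courses. Of 15912 genes, 5 lie outside the plotted range; the 2071 kept genes lie along the dashed line, the 365 lost genes along the horizontal axis, and the 162 reversed genes where the signs of the axes differ.

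Over those 432 genes the seizure course reached a median of 0.683 of the wild-type change, and the seizure-free course 0.88. Rising genes reached 0.775 in the seizure course and falling genes 0.6, both from the fitted changes. Shares per library were taken from log2 CPM with 0.5 added and are not on the same scale as these. On that measure rising genes reached 0.79, 0.886 and 0.631 in the 3 seizure libraries and falling genes 0.693, 0.642 and 0.655. These genes were chosen in the wild-type libraries that also enter the ratio. With 475 genes chosen instead in libraries of 129S6/SvEvTac mice, which enter neither course, the medians were 0.716 for the seizure course and 0.952 for the seizure-free course. A maturation score was built from the same 475 genes, 184 rising and 291 falling, and set to 0 at the mean of P14 wild type and to 1 at the mean of P24 wild type. The seizure libraries scored 0.796, 0.791 and 0.71, the P24 Scn1a+/- libraries without seizures 0.947 and 0.972, and the P14 Scn1a+/- libraries -0.053, 0.047 and 0.019. P24 wild-type libraries scored 0.993, 1.013 and 0.994. All 3 seizure libraries thus lay above every P14 library and below every other P24 library. The falling part of the score was 0.659 ± 0.027 in seizure libraries and the rising part 0.852 ± 0.0944 (SD, n = 3). The order of the parts was not the same in every library: as median shares of the same 475 genes, falling genes reached 0.734, 0.65 and 0.73 in the 3 seizure libraries and rising genes 0.813, 0.905 and 0.665, so the third library had the falling genes further along. Without the third seizure library the mean score was 0.794, against 0.766 ± 0.0485 with it.

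**Figure D2:**
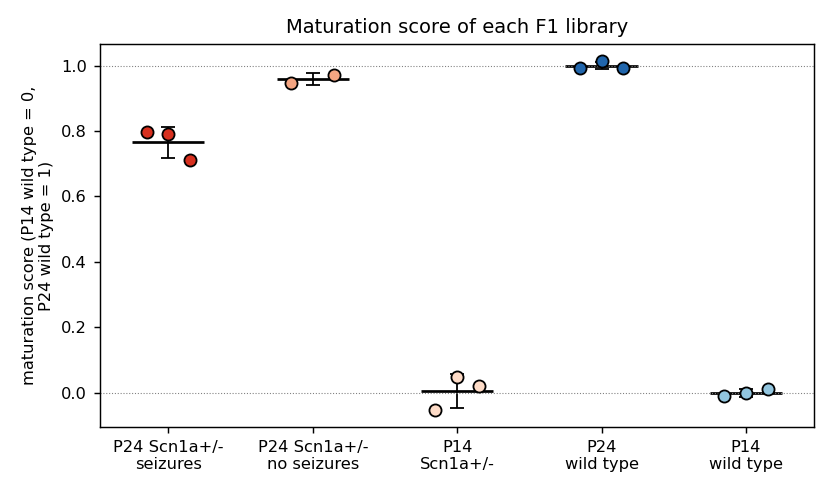
Maturation score of each F1 library (points), with the mean (line) and SD (bar) of each group; 0 is the mean of P14 wild type and 1 the mean of P24 wild type. The 3 seizure libraries sit between 0.71 and 0.796, below the other P24 libraries and above all P14 libraries.

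Most genes of the oligodendrocyte programme kept their course. Of 29 tested myelin and mature oligodendrocyte genes, 23 rose and 1 fell in the seizure course, 26 rose in the wild-type course, and 23 were kept. The list's median log2 change was 0.91 in the seizure course and 1.25 in wild type, beside 0.02 and 0.00 over all genes. Mbp, which encodes myelin basic protein, stood at 6170, 9790 and 5400 CPM in seizure libraries, against 3220, 3930 and 4660 in P14 Scn1a+/-. It stood at 7420, 8970 and 7800 CPM in P24 wild type, against 4310, 4070 and 4520 at P14. Neither course had overlapping groups, and the difference of the courses was -0.05 ± 0.19 (log2 ± SE, adjusted p = 0.919). Mog, a surface protein of the outer myelin layer, had a log2 change of 0.98 ± 0.11 in the seizure course and 1.42 ± 0.11 in wild type (adjusted p of the difference 0.0572). Hapln2, a link protein of the nodes of Ranvier, rose by 3.57 ± 0.23 in the seizure course and by 3.38 ± 0.20 in wild type. One myelin gene, Cnp, had a lost course, with 0.12 ± 0.09 in seizure tissue and 0.51 ± 0.09 in wild type (adjusted p = 0.0446). That difference was not called in 10 of 22 alternative fits, with adjusted p up to 0.2. Over the list, 1 gene had a called difference, and leaving out 1 library gave 0 to 8. The count was 6 without the second seizure library, 4 without the third, 8 without the first P14 Scn1a+/- library, 8 without the third P14 wild-type library and 5 without the third P24 wild-type library. Of 20 oligodendrocyte precursor genes 18 fell in each course and 17 were kept, among them Pdgfra, the growth factor receptor that marks these cells, at -0.60 ± 0.08 in the seizure course and -0.44 ± 0.07 in wild type.

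Of 30 maturation landmark genes 11 were kept, 4 lost, 2 reversed, 2 exceeded, 5 added and 3 undecided, and 13 had a called difference. Leaving out 1 library gave 10 to 19 such calls, the highest without the third seizure library. Hapln1, a link protein of the young extracellular matrix, stood at 67.7, 55.5 and 56.5 CPM in seizure libraries, against 166, 147 and 169 in P14 Scn1a+/-. Wild type had 67.5, 65.1 and 69.3 CPM at P24, against 160, 141 and 151 at P14. In both genotypes every P24 library lay below every P14 library, and the difference of courses was -0.26 ± 0.11 (adjusted p = 0.164). Pvalb, the calcium buffer of fast-spiking interneurons, rose by 0.56 ± 0.10 in the seizure course and by 0.62 ± 0.10 in wild type. Kcnc1, a potassium channel of such fast-spiking cells, rose by 0.25 ± 0.07 in the seizure course and 0.38 ± 0.07 in wild type. Another potassium channel gene, Kcna1, rose by 0.61 ± 0.08 in the seizure course and 0.60 ± 0.08 in wild type. Of 7 NMDA receptor subunits none had a called difference (0 in edgeR, smallest adjusted p 0.0532 for Grin3a), and 3 had one without the third seizure library. Grin2a, the subunit known to replace Grin2b with age, rose by 0.52 ± 0.10 in seizure tissue and by 0.91 ± 0.10 in wild type. Grin2b did not fall in either course, at 0.26 ± 0.13 in the seizure course and 0.37 ± 0.13 in wild type, and was undecided. The Grin2a difference of -0.40 ± 0.14 did not pass (adjusted p = 0.074). Without the third seizure library it was -0.54 (adjusted p = 0.00151), and that of Grin3a, the juvenile subunit, was -0.57 (adjusted p = 0.000223). Slc12a2, the chloride importer NKCC1, rose by 0.34 ± 0.07 in the seizure course and 0.48 ± 0.07 in wild type.

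**Figure D3:**
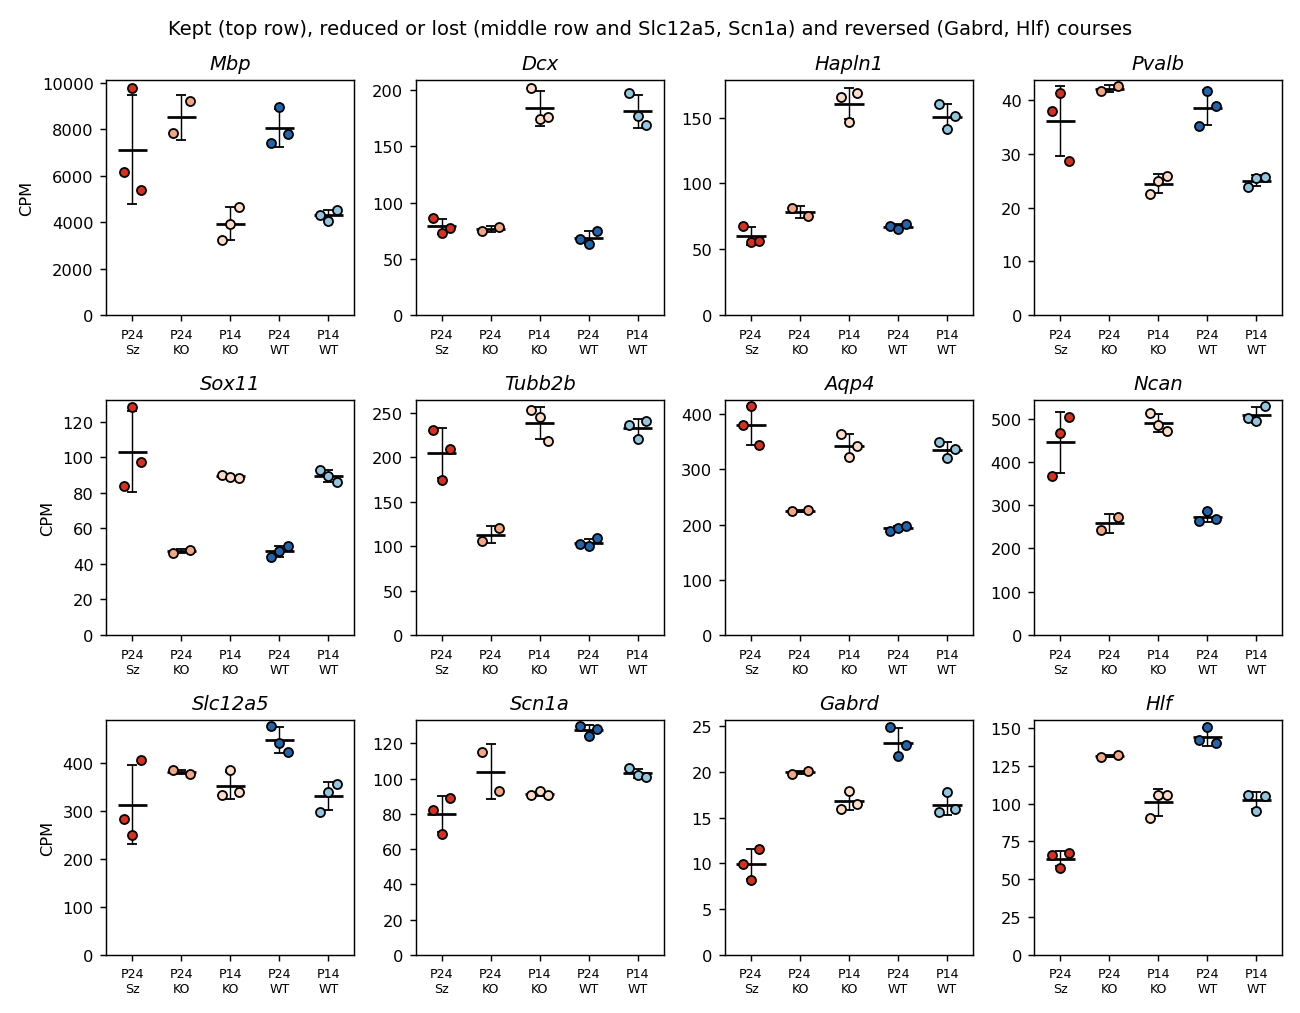
CPM of 12 genes in each F1 library (points), with the mean (line) and SD (bar) of each group, from left to right P24 seizure (Sz), P24 Scn1a+/- without seizures (KO), P14 Scn1a+/-, P24 wild type (WT) and P14 wild type. The top row holds kept courses, and from Sox11 to Scn1a the seizure libraries lie nearer to the P14 libraries, as for Aqp4 at 345 to 415 against 323 to 364 CPM. An exception is the third seizure library for Slc12a5, which lies between P14 and P24 wild type. For Gabrd and Hlf the seizure libraries lie below every other F1 library.

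The decline of immature neurons was present but smaller for part of its genes. All 25 tested immature neuron genes fell in wild type and 22 fell in the seizure course, with medians of -0.74 in the seizure course and -1.04 in wild type. Of these, 16 were kept, 6 reduced, 2 lost and 1 undecided. Dcx, doublecortin, the microtubule protein of migrating neuroblasts, stood at 86.3, 73.2 and 77.6 CPM in seizure libraries, against 202, 174 and 176 in P14 Scn1a+/-. In wild type it stood at 68.1, 63.6 and 75.1 CPM at P24, against 197, 177 and 169 at P14. Seizure and P14 libraries did not overlap, and the difference of courses was 0.17 ± 0.11 (adjusted p = 0.376). Sox11, a transcription factor of newborn neurons, behaved otherwise. It stood at 83.9, 128 and 97.3 CPM in seizure libraries, against 90.0, 89.0 and 88.4 in P14 Scn1a+/-. Wild-type libraries had 43.9, 47.3 and 49.9 CPM at P24, against 92.7, 89.4 and 86.0 at P14. Seizure and P14 libraries overlapped, while all 3 seizure libraries lay above P24 wild type, and the difference of courses was 1.13 ± 0.13 (adjusted p = 3.39e-07). Tubb2b, a tubulin of growing neurites, fell by 0.22 ± 0.08 in the seizure course and by 1.16 ± 0.08 in wild type, and its P24 seizure libraries (231, 175 and 209 CPM) overlapped P14 Scn1a+/- (253, 245 and 218 CPM). Igfbpl1, made by neural progenitors and young neurons, fell by 0.74 ± 0.10 in the seizure course and by 1.81 ± 0.10 in wild type. Fabp7, the lipid carrier of radial glia, varied within the seizure group, with 128, 142 and 59.6 CPM, against 186, 161 and 153 in P14 Scn1a+/-. The third library sat at the level of P24 wild type (52.5, 61.5 and 56.5 CPM) and the other 2 stood above it.

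Among 33 mitotic and DNA replication genes, 17 fell in the seizure course and 24 in wild type, with 12 kept, 2 reduced and 10 undecided. The reduced ones were the proliferation markers Mki67 (-0.77 ± 0.15 in the seizure course, -1.42 ± 0.15 in wild type) and Top2a (-0.99 ± 0.21 in the seizure course, -1.92 ± 0.22 in wild type). Both differences were near the threshold (adjusted p = 0.0446 and 0.0436) and missed it in 14 and 13 of 22 alternative fits, and leaving out 1 library gave 0 to 3 called differences in the list. Further, 2 imprinted genes of fetal growth also departed. H19, a long noncoding RNA, stood at 3.01, 4.22 and 1.90 CPM in seizure libraries, against 3.71, 3.63 and 3.60 in P14 Scn1a+/-, and at 0.712, 0.800 and 0.779 in P24 wild type, against 5.66, 4.56 and 3.48 at P14. All seizure libraries were above all P24 wild-type libraries, and the difference of courses was 2.30 ± 0.40 (adjusted p = 0.000152). Its neighbour Igf2, a growth factor of meninges and choroid plexus, went the other way, with a fall of 1.29 ± 0.13 in the seizure course that exceeded one of 0.46 ± 0.12 in wild type. Nnat, neuronatin, a membrane protein of young neurons, fell by 0.35 ± 0.06 in the seizure course and by 0.97 ± 0.06 in wild type.

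Among the named genes, 3 of the matrix and astrocyte genes that declined after P14 in wild type, Tnc, Ncan and Aqp4, had no called decline in seizure tissue. Tnc, which encodes the matrix glycoprotein tenascin-C, stood at 40.4, 41.5 and 36.7 CPM in seizure libraries, against 46.9, 43.2 and 37.1 in P14 Scn1a+/-. It stood at 17.4, 19.6 and 18.1 CPM in P24 wild type, against 49.3, 46.5 and 38.3 at P14. The lowest seizure library was above the highest P24 wild-type library, and the difference was 1.18 ± 0.17 (adjusted p = 9.91e-06). Ncan, the proteoglycan neurocan, had a log2 change of -0.14 ± 0.08 in the seizure course and -0.90 ± 0.08 in wild type (adjusted p of the difference 1.24e-05). Aqp4, the water channel of astrocyte endfeet, had 0.15 ± 0.07 in the seizure course and -0.80 ± 0.07 in wild type (adjusted p of the difference 1.15e-07). Of 16 perineuronal net and lectican matrix genes, 4 ran higher and 2 lower in the seizure course than in wild type, and 7 were kept, 2 exceeded and 2 lost. The matrix gene Acan, aggrecan, was added, at 9.30, 26.3 and 16.5 CPM in seizure libraries, against 7.69, 11.3 and 6.74 in P14 Scn1a+/-. Those groups overlapped through the first seizure library, and 4 of 22 alternative fits did not call the difference.

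Cholesterol synthesis genes fell after P14 in wild type and mostly did not in seizure tissue. Of 24 genes, 15 fell in wild type and 2 in the seizure course, where 7 rose. The difference was called for 16, all higher in the seizure course, with 8 lost and 2 reversed. Sqle, squalene epoxidase, stood at 108, 122 and 129 CPM in seizure libraries, against 110, 116 and 113 in P14 Scn1a+/-. Wild-type libraries had 72.7, 72.3 and 73.0 CPM at P24, against 111, 106 and 117 at P14. Seizure libraries overlapped the P14 level and stood above P24 wild type, and the difference was 0.70 ± 0.11 (adjusted p = 2.05e-05). Msmo1, a sterol demethylating enzyme, rose by 0.29 ± 0.06 in the seizure course and fell by 0.33 ± 0.06 in wild type. Tm7sf2, a sterol reductase, kept its fall, at -0.72 in the seizure course and -0.74 in wild type.

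Rises that mark neuronal maturation were lost or turned round for several channels and receptors. Slc12a5, the chloride exporter KCC2, stood at 283, 249 and 405 CPM in seizure libraries, against 332, 385 and 339 in P14 Scn1a+/-. Wild type had 477, 441 and 423 CPM at P24, against 298, 339 and 355 at P14. The seizure libraries straddled the P14 level, with the third above it, and all lay below P24 wild type. The difference of courses was -0.61 ± 0.15 (adjusted p = 0.00647), and it passed in 21 of 22 alternative fits. Scn1a had -0.19 ± 0.08 in the seizure course and 0.31 ± 0.08 in wild type (adjusted p of the difference 0.00227). Its seizure course was measured in mice with 1 working copy of this gene, and the part of genotype in these values was not tested. The AMPA receptor subunits Gria1, Gria2 and Gria3, which carry fast excitation, were lost too, with log2 changes of -0.04, -0.12 and 0.01 in the seizure course and 0.33, 0.26 and 0.44 in wild type. Kcnab1, a potassium channel beta subunit, had -0.08 ± 0.09 in the seizure course and 0.58 ± 0.09 in wild type (adjusted p of the difference 0.000869). Itpka, a kinase of dendritic spines, had -0.07 ± 0.06 in the seizure course and 0.34 ± 0.06 in wild type (adjusted p of the difference 0.00184).

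Gabrd, the delta subunit of extrasynaptic GABA-A receptors, was one of the rises that turned into falls. It stood at 9.93, 8.23 and 11.6 CPM in seizure libraries, against 16.0, 17.9 and 16.5 in P14 Scn1a+/-. In wild type it stood at 24.9, 21.7 and 23.0 CPM at P24, against 15.6, 17.8 and 15.9 at P14. No seizure library overlapped either age, and the difference was -1.25 ± 0.15 (adjusted p = 5.85e-07). Scn4b, a sodium channel beta subunit of fast-firing neurons, fell by 0.73 ± 0.14 in the seizure course and rose by 0.63 ± 0.13 in wild type. Of 12 sodium channel subunits and partners, 9 fell and 1 rose in the seizure course, while 4 rose and 1 fell in wild type. The difference was called for 8, all lower in the seizure course, and 6 of the 8 were added falls with no called wild-type course. Scn3b, another beta subunit, was one of them, at 276, 186 and 243 CPM in seizure libraries, against 397, 364 and 394 in P14 Scn1a+/-. Scn8a, the main channel of the axon initial segment, was undecided, at 0.08 ± 0.08 in the seizure course and 0.26 ± 0.08 in wild type. Of 58 potassium and HCN channel genes, 13 ran lower and 3 higher in the seizure course than in wild type, and without the third seizure library 27 differed. By class, 13 of these 58 genes were kept, 3 lost, 3 reversed, 4 undecided and 10 added. Kcnq3, a subunit of the M-current, fell by 0.53 ± 0.08 in the seizure course and had 0.08 ± 0.07 in wild type, whereas Kcnip3, a calcium-binding partner of A-type channels also known as DREAM, rose by 1.08 ± 0.09 in the seizure course beside -0.06 ± 0.09 in wild type.

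Among PAR bZIP and clock genes, which set and carry out circadian rhythm, the classes were mixed, with 3 lost, 1 reversed, 2 kept, 1 exceeded, 4 undecided and 6 in no class. Hlf, a transcription factor of the PAR bZIP family, stood at 65.8, 57.7 and 67.6 CPM in seizure libraries, against 90.6, 106 and 106 in P14 Scn1a+/-. In wild type it stood at 142, 151 and 140 CPM at P24, against 106, 95.4 and 105 at P14. Every seizure library lay below every other F1 library, and the difference was -1.16 ± 0.10 (adjusted p = 2.48e-09). Its relative Tef and the clock gene Per3 were lost, with -0.05 ± 0.06 and 0.11 ± 0.09 in the seizure course and 0.40 ± 0.06 and 0.74 ± 0.08 in wild type. The repressor Bhlhe41 was exceeded, at 94.1, 128 and 123 CPM in seizure libraries, against 24.5, 30.4 and 26.5 in P14 Scn1a+/-. Wild type had 48.5, 49.4 and 46.0 CPM at P24, against 27.0, 27.5 and 26.0 at P14. The rise was 2.09 ± 0.09 in the seizure course and 0.84 ± 0.09 in wild type. Of 17 genes of this list, 4 rose and 2 fell in the seizure course, and 11 rose and 0 fell in wild type. The difference was called for 5, and for 8 without either the first or the third seizure library. The labels used here give no hour of dissection, so its part in these values was not tested.

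Dentate granule cell markers split between the classes. Of 17, 12 rose in wild type and 0 fell. In the seizure course 9 rose and 5 fell, and 4 were kept, 3 exceeded, 1 reduced and 3 reversed. Prox1, the transcription factor that defines these cells, ran from 109 to 119 CPM in seizure libraries, and from 109 to 125 in P14 Scn1a+/-, so the groups overlapped. Tdo2, a tryptophan dioxygenase enriched in mature granule cells, stood at 2.74, 0.610 and 1.07 CPM in seizure libraries, against 5.48, 4.98 and 6.74 in P14 Scn1a+/-. It stood at 11.8, 10.2 and 9.35 CPM in P24 wild type, against 7.57, 7.60 and 5.52 at P14. Seizure libraries lay below both ages, with a difference of -2.53 ± 0.37 (adjusted p = 1.31e-05). Dsp, the junction protein desmoplakin, fell by 0.72 ± 0.12 in the seizure course and rose by 0.85 ± 0.12 in wild type. Calb1, the calcium buffer calbindin, was an added fall, at 114, 88.4 and 103 CPM in seizure libraries, against 138, 138 and 140 in P14 Scn1a+/-. C1ql2, a secreted protein of mossy fibre synapses, rose more than in wild type, by 1.28 ± 0.14 in the seizure course against 0.63 ± 0.14 in wild type. Of 11 CA1 markers 1 rose and 4 fell in the seizure course, with 3 called differences, or 5 without the third seizure library. The CA1 marker Fibcd1 was an added fall of 0.96 ± 0.12, and Lamp5, a marker of neurogliaform interneurons, reversed, falling by 0.54 ± 0.11 beside a wild-type rise of 0.46 ± 0.10. The list of CA2 and CA3 markers, 14 genes, had 3 rises, 5 falls and 2 called differences. Among these, the neurotrophin gene Ntf3 fell by 1.36 ± 0.24 beside 0.20 ± 0.20 in wild type.

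Of the 162 reversed genes, 98 fell in wild type and rose in the seizure course, and 5 reversed genes were on the reactive astrocyte list. Vim, the intermediate filament vimentin, stood at 185, 198 and 172 CPM in seizure libraries, against 56.2, 44.5 and 53.1 in P14 Scn1a+/-. Wild type had 44.0, 43.1 and 40.1 CPM at P24, against 53.3, 50.4 and 55.8 at P14. Every seizure library lay above every other F1 library, and the difference was 2.16 ± 0.12 (adjusted p = 3.93e-14). Ptx3, a secreted pentraxin, stood at 10.4, 29.9 and 12.1 CPM in seizure libraries, against 3.36, 4.04 and 2.49 in P14 Scn1a+/-. S100a10, an annexin partner, rose by 1.28 ± 0.14 in the seizure course and fell by 0.91 ± 0.15 in wild type. The epithelial membrane protein gene Emp1 rose by 2.05 ± 0.24 in the seizure course and fell by 0.77 ± 0.26 in wild type. Of 34 reactive astrocyte genes, 23 rose and 2 fell in the seizure course and 4 rose and 9 fell in wild type. The difference was higher for 21 and lower for 1, and 5 genes were reversed and 13 added. Gfap, the astrocyte filament protein, was among the added genes, at 3370, 3030 and 2360 CPM in seizure libraries, against 587, 580 and 593 in P14 Scn1a+/-. P24 wild type had 546, 624 and 590 CPM, so Gfap had no called wild-type course (-0.10 ± 0.10) and a seizure course of 2.31 ± 0.11. The summed level of all 38 listed genes, tested or not, was 3460 to 4480 CPM in seizure libraries, against 1090 to 1140 in P14 Scn1a+/-. Most of that sum in the seizure libraries was Gfap alone, at the values given above. Timp1, an inhibitor of metalloproteinases, rose by 4.64 ± 0.27 beside 0.01 ± 0.28 in wild type.

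The genes of resting astrocyte function did not move together. Of 33, 7 rose and 15 fell in the seizure course, with 7 added and 5 exceeded. Glul, glutamine synthetase, fell by 0.50 ± 0.06 in the seizure course and had 0.06 ± 0.06 in wild type. The gap junction gene Gja1 and the GABA transporter Slc6a11, also called GAT-3, fell further than in wild type, by 0.65 ± 0.06 and 0.92 ± 0.10 in the seizure course against 0.24 ± 0.06 and 0.27 ± 0.10 in wild type. Kcnj10, the potassium channel Kir4.1, rose by 0.48 ± 0.07 in the seizure course and had -0.17 ± 0.07 in wild type. Slc1a2, the main glutamate transporter, kept its fall, at -0.53 ± 0.07 in the seizure course and -0.34 ± 0.06 in wild type (adjusted p of the difference 0.248).

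Collagen and fibroblast genes ran higher in the seizure course for 9 of 24 and lower for 2. Col3a1, a fibrillar collagen, rose by 0.47 ± 0.13 in the seizure course and fell by 1.05 ± 0.14 in wild type. Col12a1, a fibril-associated collagen, rose by 0.87 ± 0.13 in the seizure course and fell by 0.44 ± 0.13 in wild type. Of the defining leptomeningeal markers, Lum ran from 3.14 to 4.33 CPM and Dcn from 17.6 to 30.8 CPM in seizure libraries, against 3.36 to 6.10 and 29.4 to 38.4 CPM in P14 Scn1a+/-. The marker Col1a1, a fibrillar collagen, was an added rise, at 12.9, 13.0 and 15.7 CPM in seizure libraries, against 11.0, 7.26 and 8.68 in P14 Scn1a+/-. The summed level of the 24 genes was 1110 to 1270 CPM in seizure libraries, against 991 to 1010 in P14 Scn1a+/-, and its part in the collagen values was not tested. The T-type calcium channel gene Cacna1g, which drives burst firing, reversed as well, at 196, 217 and 225 CPM in seizure libraries, against 142, 141 and 133 in P14 Scn1a+/-. It stood at 103, 113 and 106 CPM in P24 wild type, against 140, 155 and 147 at P14. The groups overlapped in neither course, and the difference was 1.07 ± 0.10 (adjusted p = 8.07e-09). Bmp3 and Tll1, a bone morphogenetic protein and a protease of that pathway, rose by 2.19 ± 0.24 and 1.51 ± 0.26 in seizure tissue and fell by 0.82 ± 0.27 and 1.04 ± 0.29 in wild type.

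**Figure D4:**
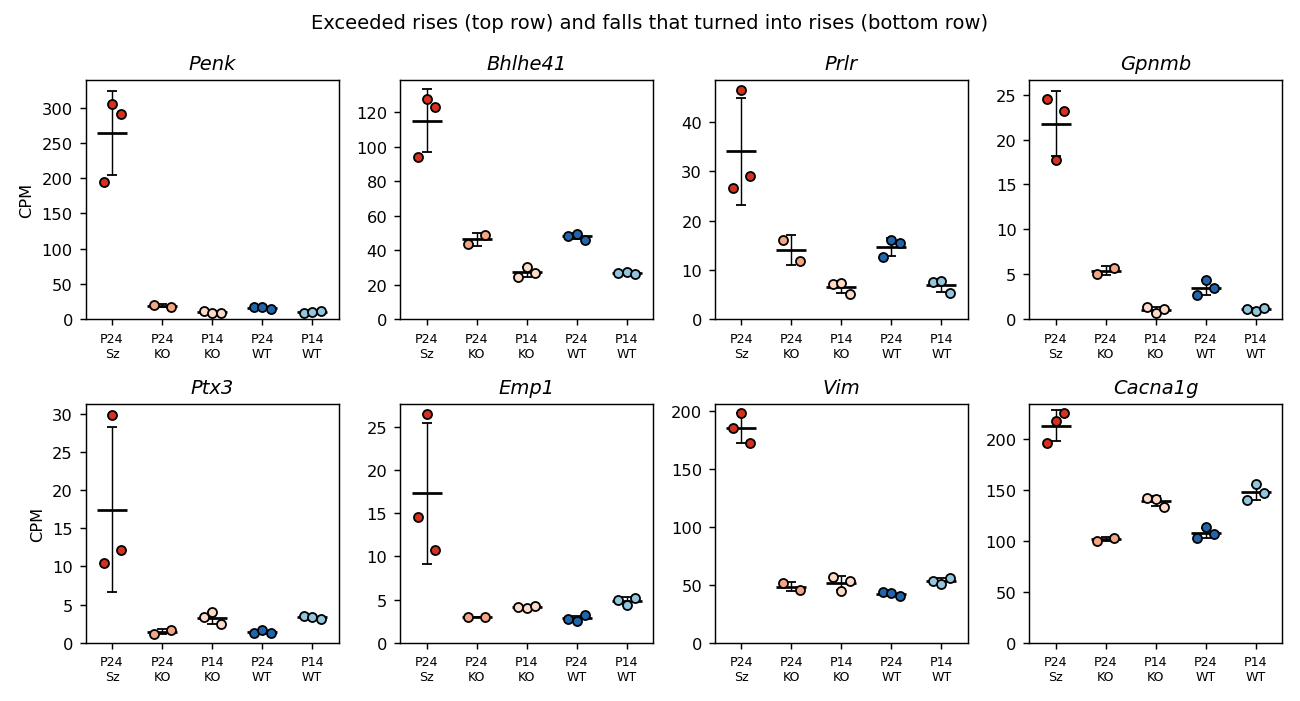
CPM of 8 genes in each F1 library (points), with the mean (line) and SD (bar) of each group in the same left-to-right order, P24 seizure (Sz), P24 Scn1a+/- without seizures (KO), P14 Scn1a+/-, P24 wild type (WT) and P14 wild type. The top row rose in both courses and further in seizure tissue, as for Penk at 195 to 305 CPM; the bottom row fell in wild type and rose in seizure tissue, as for Cacna1g at 196 to 225 CPM.

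The rises that were exceeded were led by Penk, the enkephalin precursor (chromosome 4, 4133536 to 4138815). It stood at 195, 305 and 291 CPM in seizure libraries, against 11.2, 9.01 and 9.15 in P14 Scn1a+/-. Wild type had 16.4, 17.2 and 14.2 CPM at P24, against 8.57, 9.52 and 10.7 at P14. The rise was 4.74 ± 0.15 in the seizure course and 0.73 ± 0.16 in wild type (adjusted p of the difference 7.40e-14). Acvr1c, an activin receptor, rose by 2.82 ± 0.14 in the seizure course and by 0.57 ± 0.14 in wild type. The stress-response regulator Nupr1 rose by 3.17 ± 0.20 in the seizure course and by 0.88 ± 0.21 in wild type. Gpnmb, a glycoprotein of phagocytes, stood at 24.5, 17.7 and 23.2 CPM in seizure libraries, against 1.33, 0.673 and 1.11 in P14 Scn1a+/-. P24 wild type had 2.72, 4.38 and 3.44 CPM, between the other 2 groups. The dopamine receptor gene Drd1 rose by 2.53 ± 0.19 in the seizure course and by 0.68 ± 0.20 in wild type. Penk and Drd1 are also used as striatal markers. The other defining striatal genes stood at 1.51 to 2.34 CPM (Drd2), 2.25 to 3.41 CPM (Adora2a) and 28.4 to 31.6 CPM (Rgs9) in seizure libraries, against 0.672 to 1.59, 3.05 to 5.24 and 24.8 to 26.2 CPM in P14 Scn1a+/-. Rgs9 did not overlap between these groups, and none of the 3 passed in the seizure course (adjusted p = 0.201, 0.105 and 0.0548). The part of striatal tissue in the Penk and Drd1 values was not tested. Prlr, the prolactin receptor, rose by 2.38 ± 0.21 in the seizure course and by 1.09 ± 0.20 in wild type, and had 26.6, 46.5 and 29.1 CPM in the seizure libraries. The summed level of 16 choroid plexus and ependymal genes, Prlr among them, was 720, 1340 and 682 CPM in the same libraries. That sum ran from 615 to 995 CPM in P14 Scn1a+/- and from 990 to 1070 CPM in P24 wild type. Its part in the Prlr values was not tested.

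Falls were exceeded for 54 genes. Fxyd7, a regulator of the sodium pump in neurons, stood at 24.9, 19.9 and 26.5 CPM in seizure libraries, against 106, 99.4 and 106 in P14 Scn1a+/-. Wild type had 44.3, 46.5 and 49.6 CPM at P24, against 107, 97.1 and 119 at P14. The 2 P14 groups overlapped, and the P24 seizure libraries lay below those of P24 wild type, with a difference of -0.92 ± 0.12 (adjusted p = 3.01e-06). Camkk2, a calcium-dependent kinase kinase, fell by 1.10 ± 0.07 in the seizure course and by 0.18 ± 0.07 in wild type. Asic4, an acid-sensing channel family member, fell by 1.53 ± 0.14 in the seizure course and by 0.53 ± 0.13 in wild type. Of 11 GABA-A receptor subunits, 2 had a called difference, both lower, Gabrd among them, and 4 had one without the third seizure library.

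Activity-induced genes were mostly outside the wild-type course. Of 44 immediate early genes, 35 rose and 2 fell in the seizure course and 8 rose and 2 fell in wild type, with 20 added and 4 exceeded. The difference was higher for 24 and lower for 0. Fosb, a transcription factor of the AP-1 family, stood at 35.7, 41.4 and 72.4 CPM in seizure libraries, against 3.71, 5.92 and 2.12 in P14 Scn1a+/-. P24 wild type had 5.52, 5.22 and 4.26 CPM. The P24 Scn1a+/- libraries without seizures had 22.0 and 5.61 CPM. Each stood above all wild-type libraries, the second only just, beside 5.52 CPM in the highest of those. Arc, which encodes a synaptic capsid-like protein, was exceeded, with 1.40 ± 0.14 in the seizure course and 0.39 ± 0.13 in wild type. Of 27 neuropeptides and late secreted genes, 12 ran higher and 1 lower in the seizure course than in wild type, and 10 genes were added. Npy, neuropeptide Y, stood at 93.2, 114 and 119 CPM in seizure libraries, against 31.3, 26.6 and 33.6 in P14 Scn1a+/-, and at 33.3, 26.3 and 29.1 in P24 wild type. Inhba, the activin subunit, rose by 3.74 ± 0.27 in the seizure course beside 0.02 ± 0.30 in wild type. Bdnf, the neurotrophin, rose by 1.62 ± 0.15 in the seizure course beside -0.12 ± 0.15 in wild type. Gal, galanin, rose by 3.11 ± 0.31 in the seizure course beside -0.42 ± 0.34 in wild type. The cytokine gene Lif spread widely, at 8.40, 59.4 and 17.4 CPM in seizure libraries, against 1.24, 2.42 and 0.554 in P14 Scn1a+/-. The second seizure library was the highest, and the difference of 4.13 ± 0.96 passed in 21 of 22 alternative fits.

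Promoter windows that hold the AP-1 motif TGANTCA, to which Fos and Jun proteins bind, are shown for 3 genes. Their courses turned round (Emp1), were added (Lif) or were exceeded (Gpnmb). Sequences are RefSeq promoters of GRCm38.p6, 250 bases before to 50 bases after the annotated start, written 5′ to 3′ along the plus strand, on which all 3 genes lie, with motif matches in capitals. The windows are chr6:135362681-135362980, chr11:4257318-4257617 and chr6:49036268-49036567. In Emp1 both matches lie upstream of the start, in Lif the match lies upstream, and in Gpnmb it lies just after the start. Emp1 has a further window, chr6:135367243-135367542, without an AP-1 match. Other named genes of these classes, such as Vim (reversed), Inhba (added) and Acvr1c (exceeded), have no AP-1 match in their windows.
Emp1: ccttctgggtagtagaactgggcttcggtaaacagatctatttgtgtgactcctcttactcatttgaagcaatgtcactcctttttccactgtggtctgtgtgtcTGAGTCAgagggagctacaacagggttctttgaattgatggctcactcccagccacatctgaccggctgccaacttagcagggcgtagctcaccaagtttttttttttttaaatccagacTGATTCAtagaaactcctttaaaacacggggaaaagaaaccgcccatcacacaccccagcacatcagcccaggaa
Lif: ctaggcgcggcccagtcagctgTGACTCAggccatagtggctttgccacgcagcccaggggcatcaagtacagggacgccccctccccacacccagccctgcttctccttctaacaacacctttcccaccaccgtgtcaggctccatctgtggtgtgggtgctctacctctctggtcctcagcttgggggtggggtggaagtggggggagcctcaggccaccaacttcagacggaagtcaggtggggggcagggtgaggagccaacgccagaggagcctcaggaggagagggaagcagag
Gpnmb: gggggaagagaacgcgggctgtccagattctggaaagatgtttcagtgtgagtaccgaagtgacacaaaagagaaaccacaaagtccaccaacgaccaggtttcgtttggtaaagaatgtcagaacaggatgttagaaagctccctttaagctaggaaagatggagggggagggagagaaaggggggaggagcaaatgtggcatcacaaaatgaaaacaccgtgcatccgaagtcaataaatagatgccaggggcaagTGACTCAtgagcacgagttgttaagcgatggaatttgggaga
A promoter window was at hand for 11908 of the 15912 tested genes, and the AP-1 motif, searched on both strands, was in 5.26% of 15145 windows. It was in 10.9% (11 of 101) of windows of genes whose fall reversed, 8.97% (14 of 156) of those whose fall was lost, 8.09% (33 of 408) of those with an added rise and 7.21% (8 of 111) of those with an exceeded rise. Kept rises had it in 6.45% (67 of 1039), reduced falls in 6.25% (2 of 32), lost rises in 5.03% (9 of 179), added falls in 5.0% (17 of 340) and exceeded falls in 4.65% (2 of 43). Kept falls had it in 3.63% (37 of 1019), reduced rises in 3.03% (1 of 33) and reversed rises in 2.94% (2 of 68). A match describes the letters of a window and not binding, and these shares were not tested.

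Microglial, vascular and metabolic lists are given for comparison, and over all tested genes the difference was called for 9.66%. Of 33 microglia genes, 13 rose and 4 fell in the seizure course and 4 rose and 7 fell in wild type, with a called difference for 8. Leaving out 1 library gave 3 to 13, the lowest without the first P24 wild-type library and the highest without the third seizure library. The complement gene C1qb was an added rise, at 71.0, 68.4 and 49.7 CPM in seizure libraries, against 42.6, 43.4 and 42.9 in P14 Scn1a+/-. P2ry12, a receptor of surveying microglia, kept its fall, at -0.83 ± 0.10 in the seizure course and -0.77 ± 0.10 in wild type. Of 29 endothelial and pericyte genes, 10 were kept and 2 had a called difference (0 to 3 on leaving out 1 library), and the efflux transporter Abcb1a lost its rise (-0.01 ± 0.14 in the seizure course and 0.64 ± 0.13 in wild type), a difference that 6 of 22 alternative fits did not call. Oxidative phosphorylation genes fell for 34 of 60 in wild type and for 10 in the seizure course, with 25 undecided and a called difference for 4. Cytosolic ribosomal protein genes fell for 16 of 53 in wild type and for 1 in the seizure course, with a called difference for 2. Both counts moved most with the third seizure library: without it the difference was called for 42 oxidative phosphorylation genes and 30 ribosomal protein genes. With all libraries, 25 and 13 genes of the lists were undecided. Of 27 heat shock and unfolded protein genes, 8 ran higher in the seizure course, with the chaperone partner Bag3 at 12.8, 25.0 and 23.4 CPM, against 6.63, 6.99 and 7.95 in P14 Scn1a+/-. Of 23 interferon-induced and antigen presentation genes, 12 rose and 0 fell in the seizure course, with a called difference for 3. Choroid plexus and ependymal genes had 1 called difference among 16, that of Prlr.

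**Figure D5:**
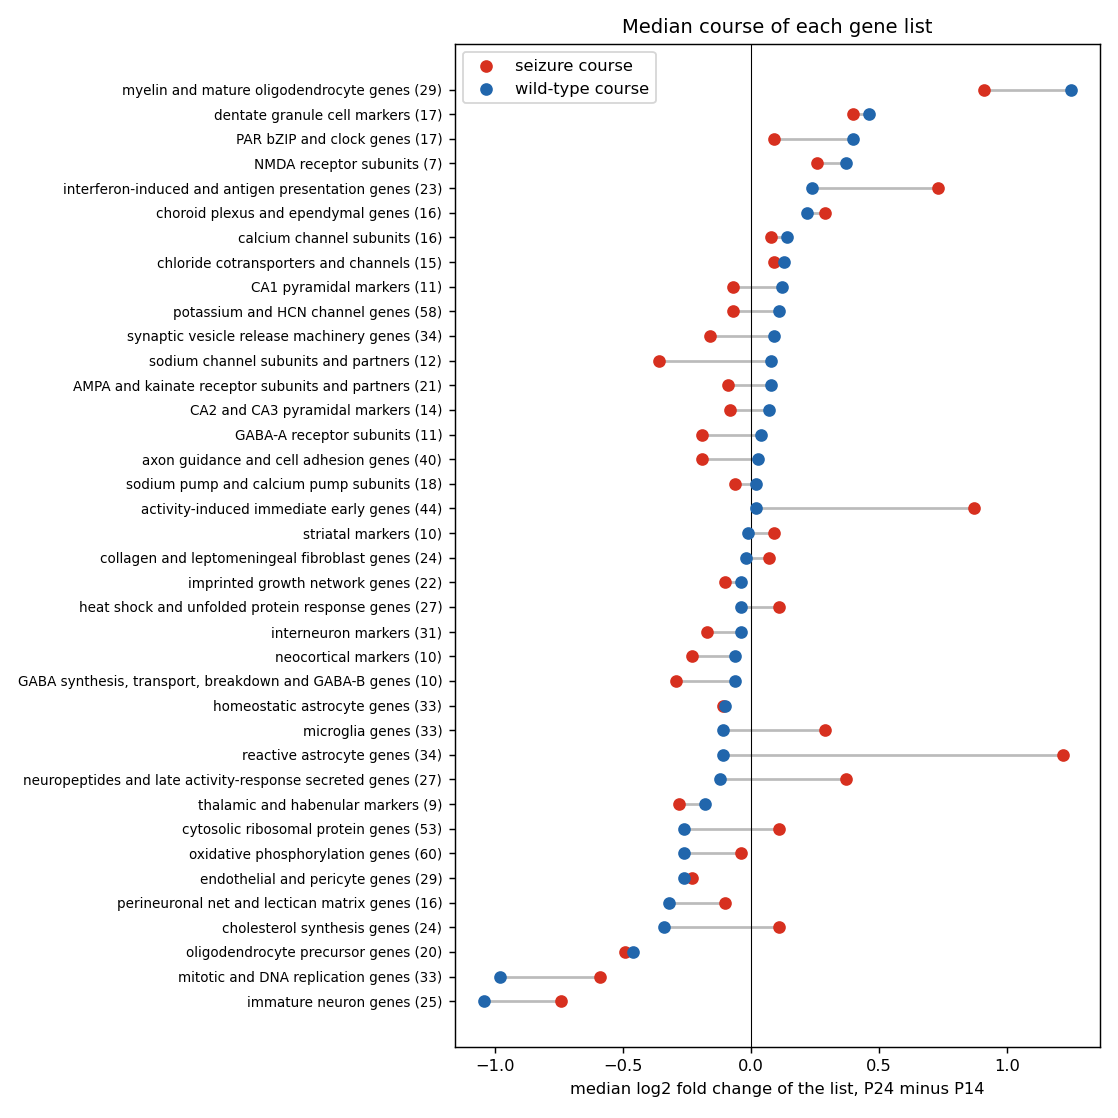
Median log2 fold change of each gene list with at least 5 tested genes (number in brackets) in the seizure course (red) and in the wild-type course (blue). Reactive astrocyte genes (1.22 and -0.11) and immediate early genes (0.87 and 0.02) lie furthest apart, while the medians of oligodendrocyte precursor genes (-0.49 and -0.46) lie close together.

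In P24 Scn1a+/- mice without seizures, 0 of 15912 tested genes had a called difference from the wild-type course, which does not show that the courses were equal. Values are given for 6 genes picked because they departed in seizure tissue. The seizure-free course, which shares its P14 libraries with the seizure course, was -0.92 for Sox11, 0.38 for Hlf, 0.25 for Gabrd, 0.11 for Slc12a5, -0.10 for Vim and 0.93 for Penk. The corresponding wild-type values were -0.93, 0.50, 0.50, 0.43, -0.32 and 0.73. The differences between these 2 courses were -0.24 ± 0.15 for Gabrd and -0.32 ± 0.16 for Slc12a5 (adjusted p = 0.877 for each), and with 2 libraries at P24 these intervals are wide. Gfap rose in the seizure-free course by 0.46 (adjusted p = 0.00305), at 749 and 861 CPM in P24 Scn1a+/- without seizures, against 587, 580 and 593 in P14 Scn1a+/-.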

How the data were processed

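RNA was sequenced from pooled hippocampi of F1 and 129S6/SvEvTac mice. Each library was a kit preparation that does not mark strand, per the labels' protocols. The authors deposited whole-number counts per gene symbol, 1 file per library. CASAVA, TopHat2 2.1.0, HTSeq 0.6.1p1 and mm10 are named per the submitters' processing notes, and which annotation and strand setting went with them is not given in the sources used here. No line of the 24421 named no gene. The authors' normalized table was not used.

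Counts of all 25 libraries entered a quasi-likelihood model with 9 group terms in edgeR 4.0.16, run under R 4.3.3 with limma 3.58.1, TMM normalization and filterByExpr (minimum count 10), leaving 15912 genes. Replicates varied by 7.57% (edgeR's common biological coefficient of variation). P-values were Benjamini-Hochberg adjusted over all tested genes, with a threshold of 0.05. Standard errors are the log2 fold change over the square root of F. CPM use effective library sizes. In simulated counts for the difference of courses, 39 of 100 genes changed by 0.5 log2 and 83 of 100 changed by 1 log2 were called, with 7 of 15712 unchanged genes. The simulation gave each gene the same spread in all groups. The real seizure libraries differed more among themselves, so these rates were not measured at their spread. Classes follow from the tests of the 2 courses and of their difference.

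Named are landmark genes, the 6 largest rises and falls of the seizure course, the 5 genes of each class and direction with the largest difference (mean log2 CPM of at least 1, groups not overlapping), and up to 2 called members of each of 40 lists. Further list members were picked for the text with their values in view. Some genes that the rule names are not reported here. The members and lists were chosen with earlier results of these data known. Genes for the maturation score come from both genotypes of 129S6/SvEvTac averaged at each age, since at P24 labels and file names of that strain disagree on genotype. Coordinates and promoters come from RefSeq tables of GRCm38.p6, the assembly of mm10, where 15208 tested symbols matched directly, 664 by an older name and 40 not at all. Alternatives were other normalizations, filters, tools (DESeq2 1.42.0, voom), library sets, thresholds, and leaving out each library.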

Additional observations from a re-analysis of the deposited data

Results flagged for a closer look

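The 2 courses differed, by the test of the difference itself, in 1537 genes, and in 162 genes both courses passed in opposite directions. Differences (log2, seizure course minus wild-type course, edgeR adjusted p under 0.05 for each) of named genes that turned round follow. Among falls that became rises, the difference was 3.66 for Ptx3, 3.01 for Bmp3, 2.82 for Emp1, 2.55 for Tll1, 2.19 for S100a10, 2.16 for Vim, 1.51 for Col3a1, 1.31 for Col12a1, 1.07 for Cacna1g and 0.62 for Msmo1. Among rises that became falls, it was -3.05 for Zcchc5, -2.53 for Tdo2, -2.50 for Nek10, -1.68 for Plekhd1, -1.58 for Fam160a1, -1.57 for Dsp, -1.36 for Scn4b, -1.25 for Gabrd, -1.16 for Hlf and -0.99 for Lamp5. Each of these differences kept its sign and stayed past the threshold in 22 of 22 alternative fits.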

How the results depend on the processing

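No share, score or named difference changed sign in the alternatives run. With a minimum count of 50 the share reached was 0.756. Voom with quality weights, which let the spread differ between groups, gave 3154 genes in the seizure course and 6412 in the wild-type course. The order of these counts thus turned round, with 44 reduced and 3815 undecided. With only the 12 libraries of the courses the difference had 990 genes, exceeded 85, reduced 25, lost 215 and reversed 104, and with the 14 F1 libraries the difference had 1020, exceeded 86, reduced 30 and lost 210. At a threshold of 0.01 the wild-type course had 2784 genes, the difference 817 and the seizure-free course 2024, with 1333 kept, 63 exceeded, 22 reduced, 162 lost, 66 reversed and 471 added. Against the seizure-free libraries in place of wild type, 2502 genes differed, 1190 of them shared with the 1537. Leaving out 1 library gave 1184 to 2861 genes for the difference, 93 to 255 exceeded, 36 to 99 reduced, 242 to 837 lost, 110 to 343 reversed, 576 to 1214 added and 0 to 1 for the seizure-free difference. For the seizure-free course it gave 1908 to 4242, the lower value without P24 Scn1a+/- replicate 2 (these 2 fits were chosen after seeing the data). The highest counts of difference, exceeded, lost, reversed and added came without the third seizure library, where 17 of 40 list counts also moved by over 1.5 times; 16 did at the stricter threshold and 15 with 12 libraries. Smaller library sets leave fewer degrees of freedom; the cause of the other shifts was not tested. Over the named genes and all alternatives, the stricter threshold among them, 2836 of the differences kept their call, 178 in 30 genes lost it and 20 in 8 genes gained it. No paired analysis was possible because titles number libraries over the whole series and groups share no number. Of the F1 groups, P14 Scn1a+/- had the lowest totals, which limits low genes such as H19.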
